A study of Mus musculus with 32 samples.

Results

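The odorant and pheromone receptor genes of the mouse were examined in open chromatin of astrocytes from the orbitofrontal cortex (OFC). Members were all peaks on chromosomes 1 to 19 whose listed nearest gene has a name that begins with Olfr, Vmn1r, Vmn2r or Taar. They made up 781 of the 13794 peaks on these chromosomes in the 6 deposited lists, and 215 receptor genes were listed. The rule uses the name and no measured value.

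Receptor genes of these 4 families encode seven-transmembrane proteins that detect odorants and pheromones. Olfr genes are the odorant receptors of the main olfactory epithelium. Taar genes encode trace amine-associated receptors, most but not all of them of the same epithelium. Vmn1r and Vmn2r genes are the pheromone receptors of the vomeronasal organ. Most lie in long tandem arrays of similar copies with many pseudogenes among them (names with -ps). A mature sensory neuron expresses a single odorant receptor gene, and in other cells the arrays are known as silent, late-replicating heterochromatin. These receptor proteins are not known as part of the identity of cortical astrocytes.

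The assay was ATAC-seq, where a transposase cuts accessible DNA and tags it for sequencing. It was applied to astrocytes sorted on magnetic beads (MACs) by the surface antigen ACSA-2, from the OFC of male C57BL/6J mice bought at 6 to 12 weeks of age. There were 32 samples, each a pool of 3 mice, and every group received an AAV6 virus driven by the GFAP promoter, so that the controls also carried a virus. GFP control (5 samples) and GFP CSDS (5 samples) received the mir-neg GFP virus, without or with 10 days of chronic social defeat stress (CSDS). Zbt-KD control (5 samples) and Zbt-KD CSDS (5 samples) received a microRNA against Zbtb7a, a zinc finger transcription factor, without or with the same stress. GFP SSDS (6 samples) and ZBT-OE SSDS (6 samples) received GFP or ZBTB7A overexpression and 1 day of subthreshold social defeat stress (SSDS) at 8 weeks of age, and this stress is given by the methods and not by the labels. Values below are in this order of groups unless stated.

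Each group has 1 peak list that covers all of its samples, so no spread between samples, no test and no replicate check was possible for any value here, and a difference between lists is a difference between those lists. Fewer cells with open chromatin at a site and less opening per cell cannot be told apart in pooled material. Peaks differed in how finely they were split. The median width over all peaks on chromosomes 1 to 19 was 1976.5, 4040, 32946.5, 41306, 53916 and 73104 bp. Numbers of peaks depend in part on this splitting, so genes overlapped or bases covered are given beside them. Of 10 astrocyte marker genes, 0 were overlapped by a peak in 5 lists and 1, Atp1b2, in ZBT-OE SSDS. Of 10 microglia, 9 oligodendrocyte and 9 olfactory sensory neuron markers, 0 were overlapped in any list. Of 10 neuronal markers 9 were in no list, and the other, Map2, was overlapped in GFP CSDS, Zbt-KD control, GFP SSDS and ZBT-OE SSDS. The lists therefore do not show the labelled cell type by its defining markers.

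Receptor arrays hold similar copies, and reads were kept only where they mapped to 1 place. To show how much of a gene's start is repeated elsewhere in the genome, the promoters of the leading gene of each family are printed below (RefSeq, GRCm38.p6, 250 bases before to 50 after the start, 5′ to 3′ on the gene's strand). Leading means listed in most lists and, among those, with the highest mean fold enrichment percentile. Olfr117 and Vmn1r39 led their families, and the next gene of the order with an entry is shown. Capitals mark bases inside a run of 31 bases that occurs more than once in the genome. All 3 promoters were overlapped by a peak in all 6 lists.
Olfr341: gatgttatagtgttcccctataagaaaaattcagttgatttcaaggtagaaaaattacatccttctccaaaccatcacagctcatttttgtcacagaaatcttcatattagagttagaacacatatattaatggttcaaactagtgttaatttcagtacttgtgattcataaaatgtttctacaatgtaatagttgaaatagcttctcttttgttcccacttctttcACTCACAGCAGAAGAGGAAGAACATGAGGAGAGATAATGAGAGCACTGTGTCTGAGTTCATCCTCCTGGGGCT
Vmn1r61: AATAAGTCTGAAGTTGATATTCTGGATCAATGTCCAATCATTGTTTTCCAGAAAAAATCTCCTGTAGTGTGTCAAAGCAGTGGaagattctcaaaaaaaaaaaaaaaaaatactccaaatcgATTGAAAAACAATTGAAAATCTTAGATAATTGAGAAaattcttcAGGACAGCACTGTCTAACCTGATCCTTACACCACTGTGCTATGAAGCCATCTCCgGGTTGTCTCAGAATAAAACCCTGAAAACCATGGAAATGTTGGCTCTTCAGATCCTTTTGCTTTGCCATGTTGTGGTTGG
Vmn2r18: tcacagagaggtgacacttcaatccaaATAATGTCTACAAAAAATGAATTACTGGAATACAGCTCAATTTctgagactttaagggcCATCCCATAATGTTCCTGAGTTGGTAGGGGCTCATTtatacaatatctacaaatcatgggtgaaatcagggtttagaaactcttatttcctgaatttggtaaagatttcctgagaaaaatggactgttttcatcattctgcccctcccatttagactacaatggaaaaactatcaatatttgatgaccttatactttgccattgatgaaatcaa
The Olfr341 promoter is at chr2:36480079-36480378 on the minus strand, with 73 capital bases. Vmn1r61 is at chr7:5611264-5611563 on the minus strand, and 252 of its bases are capitals, in runs with up to 10 copies. The Vmn2r18 promoter is at chr5:151586875-151587174 on the minus strand, with 79 capital bases. The repeated part of Olfr341 sits at its 3′ end, which holds the annotated start. In Olfr341 and Vmn1r61 the 50 bases from the annotated start on begin with ATG. These starts may therefore be those of the coding sequence, and whether they are transcript starts was not tested. Promoter here means the window around the annotated start.

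Receptor genes were listed in every group. There were 342 of 5416 peaks (6.31%, 95% Wilson interval 5.70 to 6.99) in GFP control, 176 of 3410 (5.16%, 4.47 to 5.96) in GFP CSDS and 84 of 1302 (6.45%, 5.24 to 7.92) in Zbt-KD control. Zbt-KD CSDS had 80 of 1184 (6.76%, 5.46 to 8.33), GFP SSDS 53 of 1283 (4.13%, 3.17 to 5.36) and ZBT-OE SSDS 46 of 1199 (3.84%, 2.89 to 5.08). The shares were lowest in the pair of SSDS lists, an order that did not hold under the other ways of choosing receptor peaks below. These intervals cover counting error only. When only peaks with the listed start site within 10 kb of the peak edge were kept, the shares were 3.12, 3.17, 4.99, 4.98, 3.51 and 3.42%. When receptor peaks were instead those overlapping a receptor gene of the reference, the shares were 2.92, 3.11, 6.30, 6.17, 4.68 and 4.92%, higher than by name in the SSDS lists and lower in the others. GFP control and GFP CSDS were then lowest.

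Odorant receptors gave the most peaks, with 458 at 148 listed Olfr genes, in the order of groups 200, 95, 57, 49, 29 and 28. The pheromone receptors of the Vmn2r family followed with 226 peaks at 42 genes, 98, 58, 19, 22, 16 and 13 by list. Vmn1r genes had 97 peaks at 25 genes, 44, 23, 8, 9, 8 and 5 by list. No peak was listed at any Taar gene. The fall in numbers from GFP control to ZBT-OE SSDS went with the width of peaks: receptor peaks had a median width of 2156.5 bp in GFP control and 121750 bp in ZBT-OE SSDS, and the number of peaks per listed gene went from 2.57 to 1.00. In covered sequence the order was different, with 7.93, 10.0, 10.4, 8.31, 10.9 and 8.62 Mb, which was 5.51, 5.94, 6.04, 4.72, 5.01 and 3.82% of all covered bases. This order rests on the name of a single wide peak on chromosome 7, which was listed at a Vmn2r gene in GFP CSDS, Zbt-KD control and GFP SSDS and at 2810047C21Rik1 in the other 3 lists. With that peak counted in every list, receptor peaks covered 9.73, 10.0, 10.4, 10.07, 10.9 and 10.45 Mb. The shares of all covered bases given above are by name, so they and their order depend on the same peak. The most divided gene was Vmn2r67 with 20 peaks in GFP control, followed by Olfr291 with 11 and Vmn2r68 with 10.

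The list of nearest genes names few of the receptor genes that lie in peaks. The 6 lists named 133, 102, 77, 74, 50 and 46 receptor genes, whereas peaks overlapped genes of 393, 379, 424, 402, 428 and 408 different names by at least 1 bp. Both applied to 84, 66, 58, 50, 41 and 36 genes, which is 21.4, 17.4, 13.7, 12.4, 9.58 and 8.82% of those overlapped. A wide peak carries 1 gene name and can span many neighbouring genes. Genes overlapped by a peak are therefore the main measure below.

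Annotated genes are counted from here on, and some share a name. Of the 1976 annotated receptor genes on chromosomes 1 to 19, peaks overlapped 394 (19.9%) in GFP control, 380 (19.2%) in GFP CSDS, 424 (21.5%) in Zbt-KD control, 403 (20.4%) in Zbt-KD CSDS, 429 (21.7%) in GFP SSDS and 409 (20.7%) in ZBT-OE SSDS. Over all 51229 annotated genes the shares were 7.31, 7.84, 7.82, 7.81, 9.99 and 12.2%. Receptor genes were thus above the genome in all 6 lists, and their range was narrower. The 411 Zfp genes, taken by name and not restricted to arrays, were at 9.98, 10.7, 9.49, 9.49, 14.6 and 17.3%.

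**Figure D1:**
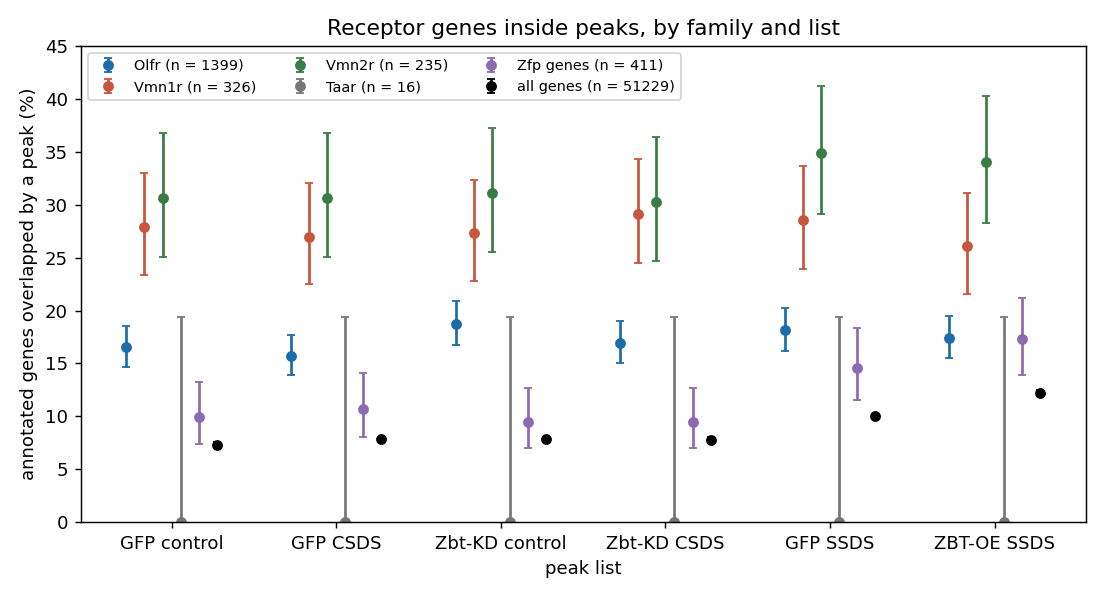
Share of annotated genes overlapped by a peak (%), for each receptor family, Zfp genes and all genes in the 6 lists, with 95% Wilson intervals. Vmn2r (30.2 to 34.9%) and Vmn1r (26.1 to 29.1%) lie above Olfr (15.7 to 18.7%) in every list, and Taar is at 0.

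With coding and other genes counted together, the families differed in the same order in every list. Olfr genes (1399), the odorant receptors, were overlapped at 16.5, 15.7, 18.7, 16.9, 18.2 and 17.4%. Vmn1r genes (326) were at 27.9, 27.0, 27.3, 29.1, 28.5 and 26.1%, and Vmn2r genes (235) at 30.6, 30.6, 31.1, 30.2, 34.9 and 34.0%. Taar genes, 16 in a single array on chromosome 10, were overlapped in 0 lists, and 0 of 16 allows a share of up to 19.4% (Wilson). In every list the Wilson interval of Olfr lay below those of both pheromone receptor families, and the intervals of Vmn1r and Vmn2r overlapped. The intervals count genes as if they were independent, though genes of 1 array share wide peaks. The Vmn1r91 to Vmn1r183 array (78 genes) alone held 60 of the 91 Vmn1r genes overlapped in GFP control and 60 of the 93 in GFP SSDS. The place of Vmn1r above Olfr thus rests largely on that array. Over the lists, coding Olfr genes were at 15.3 to 18.5% and the other Olfr genes, mostly pseudogenes, at 17.3 to 20.3%. Coding Vmn1r genes were at 31.25 to 35.1% and the others at 16.9 to 18.6%, the one family where coding genes were higher in every list. Coding Vmn2r genes were at 29.8 to 32.2% and the others at 29.8 to 39.5%. The share of coding genes in a peak in all 6 lists was 29.8% for Vmn1r and 25.6% for Vmn2r, the other order.

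Receptor genes in a peak were mostly in a peak in every group. Of 1976 genes, 1462 (74.0%) were in 0 lists, against 86.2% of all genes, 514 (26.0%) in at least 1 and 309 in all 6, which is 60.1% of the 514. The same share over all genes was 44.4% and over Zfp genes 43.2%. The share over all genes is lowered by 1 list. Of the 7074 genes in at least 1 list, 1445 were in ZBT-OE SSDS alone, against 10 of the 514 receptor genes. By family, 168 of 318 Olfr genes (52.8%), 80 of 105 Vmn1r genes (76.2%) and 61 of 91 Vmn2r genes (67.0%) were in all 6. Genes of 1 array often share a peak, so these counts are not of independent sites.

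By listed name the sharing looked smaller, with 18 of 215 receptor genes (8.37%) named in all 6 lists against 382 of 2013 listed genes (19.0%). These 18 were 8 Olfr, 3 Vmn1r and 7 Vmn2r genes. In peaks, 36.3, 31.25, 47.6, 50, 69.8 and 71.7% of receptor peaks overlapped a peak in each of the other lists, against 44.9, 32.02, 52.5, 51.8, 41.5 and 42.7% of all peaks on these chromosomes. The receptor share was above that of all peaks in the SSDS lists only. Receptor peaks of 1 list alone numbered 25 (7.31%), 6 (3.41%), 8 (9.52%), 4 (5%), 1 (1.89%) and 3 (6.52%), against 5.89, 5.60, 4.61, 5.41, 13.6 and 27.6% of all peaks. The receptor share was higher in GFP control and Zbt-KD control and lower in the other 4 lists.

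Genes found in exactly 1 list were mostly from Zbt-KD control. They numbered 4, 2, 29, 6, 4 and 10, so that Zbt-KD control held 29 of 55 (52.7%), 25 of them Olfr genes. Over all genes in exactly 1 list, Zbt-KD control held 100 of 1925 (5.19%), and ZBT-OE SSDS 1445 (75.1%). Of 47 receptor genes in exactly 5 lists, GFP CSDS and Zbt-KD CSDS each lacked 13, GFP control 8, Zbt-KD control 6, ZBT-OE SSDS 6 and GFP SSDS 1. Of 437 genes of any kind in exactly 5 lists, the order was different: GFP control lacked 161, Zbt-KD control 93, GFP CSDS 68, Zbt-KD CSDS 60, ZBT-OE SSDS 38 and GFP SSDS 17.

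Arrays were then compared as clusters, defined as runs of at least 5 annotated genes of 1 family with gaps of at most 1 Mb. There were 52 such clusters with 1889 genes, of which 30 were Olfr (1349 genes), 8 Vmn1r (308), 13 Vmn2r (216) and 1 Taar (16). Their lengths sum to 64.03 Mb. Some clusters of different families overlap, such as Olfr310 to Olfr292 inside Vmn2r-ps62 to Vmn2r79 on chromosome 7, and shared bases count in both. In 9 clusters with 255 genes, peaks covered at least 50% of the cluster in every list. In 14 clusters with 235 genes, no base was covered in any list. The clusters at 0 were 10 Olfr clusters with 120 genes, the Taar1 to Taar9 cluster, Vmn2r-ps110 to Vmn2r89 on chromosome 14 and 2 Vmn1r clusters, of which Vmn1r-ps92 to Vmn1r-ps135 on chromosome 13 has 70 genes.

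**Figure D2:**
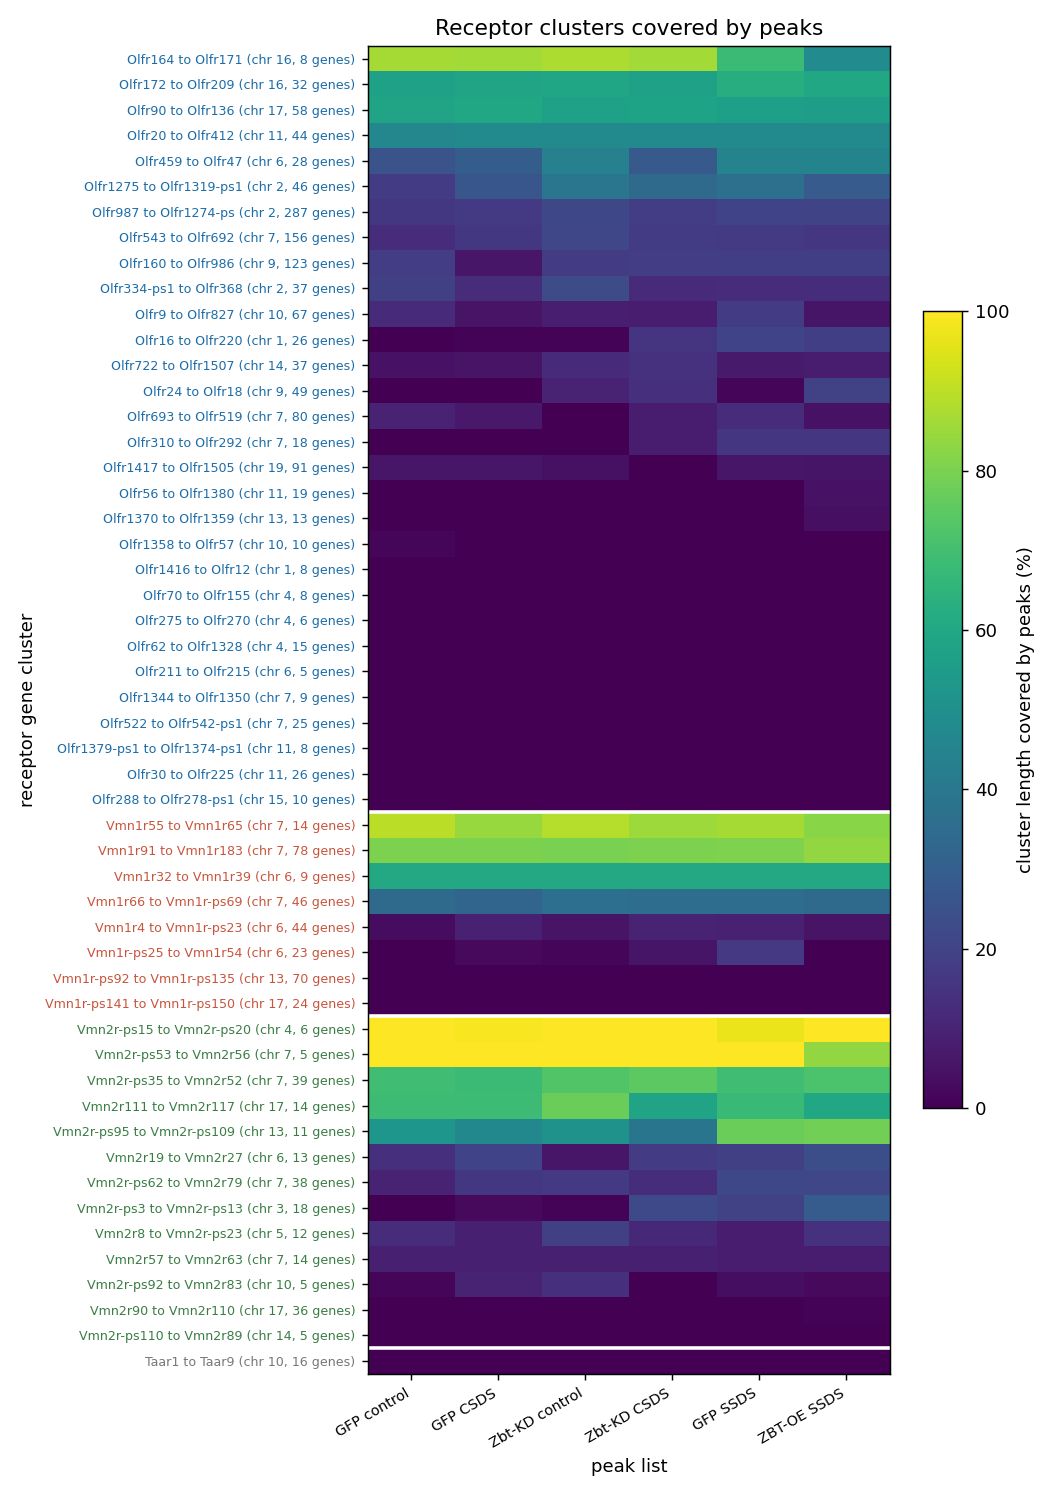
Share of bases covered by peaks (%) in each receptor gene cluster (rows, ordered by family) and each list (columns). Of 52 clusters 14 are at 0 in every list, and others, such as Vmn1r91 to Vmn1r183 (79.7 to 83.7%), are covered at a similar level in all 6.

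Among odorant receptors, 4 clusters were covered at a similar share of their length in every list. Olfr90 to Olfr136 on chromosome 17 (58 genes), next to the major histocompatibility complex, was covered at 58.3, 59.7, 57.1, 57.8, 56.3 and 56.2%. Olfr172 to Olfr209 on chromosome 16 (32 genes) was at 57.4, 58.6, 59.0, 57.2, 62.3 and 59.9%, and Olfr20 to Olfr412 on chromosome 11 (44 genes) at 46.4, 47.5, 47.9, 47.6, 47.6 and 47.6%, with 19 genes overlapped in each list. The largest cluster, Olfr987 to Olfr1274-ps on chromosome 2 with 287 genes over 5.07 Mb, was at 16.1, 17.1, 21.6, 18.2, 20.2 and 20.3%, with 47, 51, 63, 50, 54 and 58 genes overlapped. In these 4 clusters the lists differed by at most 5.52 percentage points of cluster length. Within the largest, blocks of genes were in peaks in some lists only, as given below. The Olfr164 to Olfr171 cluster on chromosome 16 (8 genes) was less steady, at 86.4, 86.2, 87.7, 86.2, 68.0 and 48.2%, and was lowest in ZBT-OE SSDS.

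Other odorant receptor clusters differed more between lists in the share covered. Olfr160 to Olfr986 on chromosome 9 (123 genes) was at 18.1, 6.12, 17.5, 18.2, 18.5 and 18.5%, so that GFP CSDS stood apart. Olfr16 to Olfr220 on chromosome 1 (26 genes) was at 0.322, 0.840, 0.919, 15.2, 20.2 and 18.4%, low in the first 3 lists. In Olfr9 to Olfr827 on chromosome 10 (67 genes), coverage was 12.01, 5.35, 8.46, 8.09, 17.3 and 5.79%. Both lists of unstressed or mildly stressed GFP mice, GFP control and GFP SSDS, were higher there than the other 4. Olfr543 to Olfr692 on chromosome 7 (156 genes), the array of fish-like odorant receptors around the beta-globin locus, was at 12.8, 16.3, 21.4, 17.8, 16.9 and 15.9%, highest in Zbt-KD control.

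Of the 8 Vmn1r clusters, 3 were covered at 50% or more in every list and 2 were at 0. Vmn1r55 to Vmn1r65 on chromosome 7 (14 genes) was covered at 89.7, 84.6, 89.0, 85.5, 86.4 and 82.1%. Vmn1r91 to Vmn1r183, also on chromosome 7 and the largest Vmn1r cluster with 78 genes over 3.96 Mb, was at 80.2, 80.1, 79.7, 80.3, 80.8 and 83.7%, with 59 to 61 genes overlapped. Vmn1r32 to Vmn1r39 on chromosome 6 (9 genes) was at 60.4 to 60.5% with 6 genes overlapped in every list. In contrast, Vmn1r-ps25 to Vmn1r54 was at 0.164, 2.42, 1.80, 5.56, 16.6 and 0%, and had its highest value in GFP SSDS.

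For Vmn2r genes, which encode receptors with a large extracellular domain, Vmn2r-ps35 to Vmn2r52 on chromosome 7 (39 genes over 3.02 Mb) was covered at 69.3, 68.0, 72.7, 74.99, 69.4 and 71.5%. Vmn2r111 to Vmn2r117 on chromosome 17 (14 genes) was at 68.6, 68.4, 77.4, 58.2, 67.2 and 60.1%. Close to it, Vmn2r90 to Vmn2r110 (36 genes) was at 0% in 5 lists and 0.783% in ZBT-OE SSDS, so neighbouring arrays of the same family can lie at opposite ends. The Vmn2r-ps15 to Vmn2r-ps20 cluster on chromosome 4 was covered at 96.9 to 100%. It has 6 pseudogenes among 13 other coding genes, and 24.7% of its bases are unknown in the assembly. Vmn2r-ps3 to Vmn2r-ps13 on chromosome 3 (18 genes) was at 0.156, 2.52, 0.917, 22.1, 19.6 and 29.2%, low in the same 3 lists as Olfr16 to Olfr220. The widest range of all 52 clusters, 39.7 points, was in Vmn2r-ps95 to Vmn2r-ps109 on chromosome 13. It has 11 genes, 0 of them coding, and was at 52.7, 46.5, 50.9, 38.9, 77.6 and 78.7%.

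Receptor peaks by listed name had a median enrichment near the middle of their lists. Fold enrichment is the ratio of reads in a peak to the local background as the peak caller gives it, and it was ranked within each list, with 100 as the strongest. The median percentile of receptor peaks was 53.3, 56.9, 45.7, 45.1, 57.7 and 54.4. Median fold enrichment was 1.69, 1.70, 1.76, 1.77, 2.08 and 2.22, against 1.68, 1.68, 1.79, 1.81, 1.92 and 2.14 over all peaks. Peaks that overlap a receptor gene of the reference ranked higher in all 6 lists, with medians of 72.7, 72.6, 58.4, 56.5, 67.0 and 61.9.

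**Figure D3:**
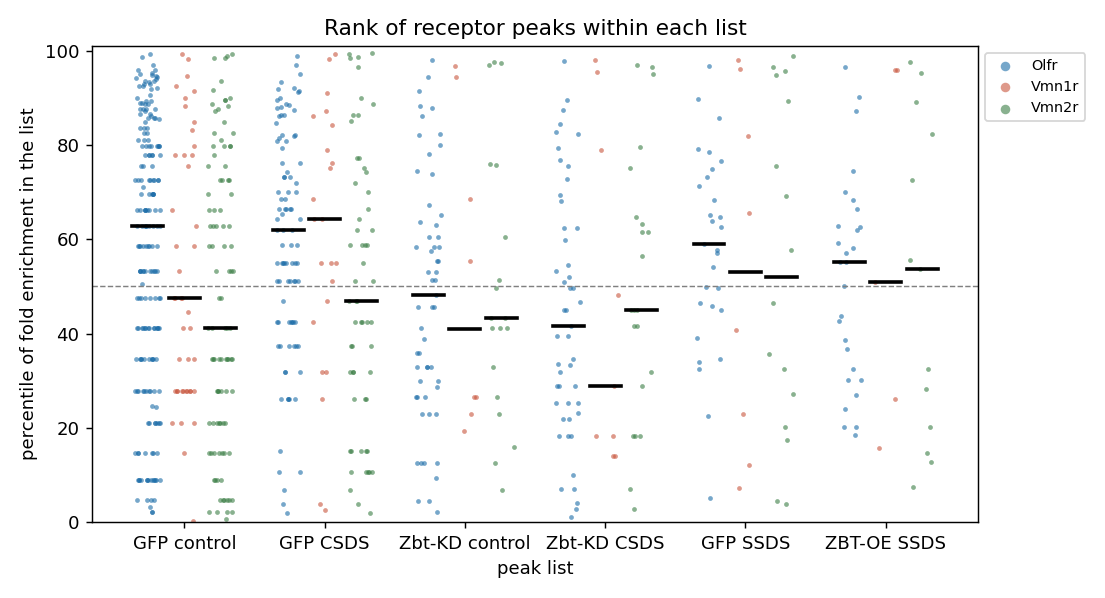
Fold enrichment percentile within each list (0 to 100) of every receptor peak, by family and list, with the family's median as a black line and a dashed line at 50. Receptor peaks spread over the whole range in each list, and the medians over all receptors were 45.1 to 57.7.

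The strongest Vmn1r peak was the same in all lists, a peak of 354360 bp listed at Vmn1r39 at chr6:66654215-67008574 in GFP control. Its fold enrichment was 4.46, 5.19, 4.20, 5.03, 5.66 and 4.89, and its rank 37, 25, 43, 25, 27 and 50. Its edges differed by less than 1 kb between lists. The strongest Olfr peak was also at 1 place, on chromosome 2, listed as Olfr74 in GFP control (fold enrichment 4.41), Olfr1155 in GFP CSDS (4.77) and Zbt-KD control (5.01), Olfr1158 in Zbt-KD CSDS (4.88) and GFP SSDS (5.13), and Olfr1157 in ZBT-OE SSDS (5.09). It was 409066 to 524870 bp wide, so that 1 region was listed under 4 gene names. For Vmn2r the strongest peaks by listed name were Vmn2r18 in GFP control (4.27), Vmn2r39 in GFP CSDS (5.64), Vmn2r47 in Zbt-KD control (4.74), Vmn2r40 in GFP SSDS (6.85), and Vmn2r87 in Zbt-KD CSDS (4.68) and ZBT-OE SSDS (5.79). The Vmn2r39, Vmn2r47 and Vmn2r40 peaks are the same part of chromosome 7, span an assembly gap and were 1412879, 2153963 and 1794352 bp wide. The other 3 lists had a peak of 1761471 to 1830059 bp in the same place, listed at 2810047C21Rik1, with fold enrichment 4.51 in GFP control, 5.08 in Zbt-KD CSDS and 7.55 in ZBT-OE SSDS. Each of these 3 was above the strongest Vmn2r peak by name in its list. The Vmn2r87 peak in ZBT-OE SSDS ended 41 bp from a run of unknown bases.

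Of genes listed in all 6 groups, Olfr117 led the odorant receptors, with a 439 kb peak on chromosome 17 at fold enrichment 3.55, 3.39, 3.44, 3.01, 3.44 and 3.31. Its edges lay within 1 kb of each other in all lists. Vmn1r61, whose promoter is printed above, had fold enrichment 3.30, 4.12, 3.45, 3.88, 4.70 and 4.89 in a peak of 723663 to 789892 bp on chromosome 7. Vmn2r18, also printed above, was at 4.27, 4.57, 4.27, 4.36, 4.34 and 3.04 on chromosome 5. Olfr341, printed with them, was at 2.04, 2.50, 2.39, 2.41, 2.43 and 2.56, and its peak was narrower in GFP control (64906 bp) than in the other lists (102781 to 105820 bp). Olfr181 on chromosome 16 was at 2.31, 2.52, 2.46, 2.21, 2.25 and 2.23, and Vmn2r13 on chromosome 5 at 2.24, 2.27, 2.28, 2.28, 2.08 and 2.24. Both were single peaks in every list. Vmn1r16 on chromosome 6 was split in GFP control into 4 peaks of up to 1.81 and was a single peak elsewhere, at 2.46, 2.07, 2.40, 2.26 and 1.75. Vmn2r87 on chromosome 10 was likewise split in GFP control into 4 peaks of up to 3.40, and was at 5.52, 4.66, 4.68, 4.94 and 5.79 in the other lists. Vmn2r21 on chromosome 6 was between 1.62 in Zbt-KD control and 2.65 in ZBT-OE SSDS. Olfr161 on chromosome 16 had a wide peak in every list (1.99 to 2.38) and a second, narrow one in GFP control and GFP CSDS. Vmn1r81 on chromosome 7 was listed in the 4 lists of the CSDS experiment, with its best peak at 2.01, 1.84, 1.84 and 1.79. Fold enrichment depends on depth and background, so these values stand side by side and a difference between lists is not read as a difference in opening.

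Receptor peaks were mostly annotated as intergenic, as were peaks in general. The intergenic share was 85.4, 84.1, 78.6, 82.5, 83.0 and 87.0% of receptor peaks, against 81.3, 78.2, 79.5, 78.6, 71.2 and 64.6% of all peaks on these chromosomes. The gap was widest in ZBT-OE SSDS. The median distance to the listed start site was 13.8, 12.6, 15.3, 16.4, 16.8 and 16.7 kb for receptor peaks and 156, 119, 144, 144, 93.3 and 42.3 kb for all peaks.

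Genes of olfactory and vomeronasal signalling, of receptor choice and of other chemosensory function were then looked up. Of 26 genes of olfactory signalling and receptor choice, Pde1c, a phosphodiesterase of olfactory cilia, was overlapped in GFP control and GFP CSDS, and Ldb1, an adaptor at receptor enhancers, in ZBT-OE SSDS. The other 24 were overlapped in 0 lists. Of 11 genes of vomeronasal signalling and 26 other chemosensory genes, 0 were overlapped in any list. Over all genes 13.8% were in at least 1 list, so small counts are read here as a description only.

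CSDS was compared with control in GFP mice, to ask which receptor sites open or close with chronic stress. Peaks absent from the other list made up 52 of 176 receptor peaks in GFP CSDS (29.5%, opened) and 122 of 342 in GFP control (35.7%, closed). Over all peaks the shares were 48.2% and 29.2%. By gene, 30 receptor genes (1.52%) were overlapped in GFP CSDS only and 44 (2.23%) in GFP control only, against 1.06% and 0.535% of all genes. Receptor genes are in peaks more often than other genes, so the same counts were also divided by the genes in the list that has the peak. They were then 7.89% of receptor genes in GFP CSDS peaks, against 13.5% of all genes there, and 11.2% of those in GFP control peaks, against 7.31%. The genes lost were 32 Olfr, 8 Vmn1r and 4 Vmn2r, and 13 of them were a single block at Olfr908 to Olfr921. The strongest closed receptor peak was in the same place, at Olfr911-ps1, chr9:38506103-38546737, with fold enrichment 2.15 (percentile 92.6), and the strongest opened one was at Vmn1r77, chr7:12010494-12011689, with 2.17 (percentile 87.1). With both lists joined at 1 scale (gaps and peaks under 20269 bp closed or dropped), 4 of 38 (10.5%) were opened and 3 of 36 (8.33%) closed, against 25.6% and 11.3% of all peaks.

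Knockdown of Zbtb7a was compared with GFP in unstressed mice. In Zbt-KD control, 18 of 84 receptor peaks (21.4%) had no counterpart in GFP control, against 31% of all peaks, and 99 of 342 receptor peaks of GFP control (28.9%) had none in Zbt-KD control, against 28.8%. By gene, 63 (3.19%) were overlapped in Zbt-KD control only, 55 of them Olfr genes, and 33 (1.67%) in GFP control only, against 1.10% and 0.595% of all genes. As a share of the genes in each list's peaks they were 14.9 and 8.38%, near the 14.06 and 8.14% of all genes. Of the genes gained, 17 lay in Olfr543 to Olfr692 on chromosome 7 and 16 in Olfr987 to Olfr1274-ps on chromosome 2, and of those lost 12 lay in Olfr693 to Olfr519 on chromosome 7. The strongest closed peak was listed at Olfr161, chr16:3113612-3116388, with fold enrichment 2.54, but with a listed distance of -477398 bp to its start site, and the strongest opened one at Olfr868 with 1.84. Joined at 1 scale, 7 of 38 (18.4%) were opened and 2 of 36 (5.56%) closed, against 22.6% and 9.40% of all peaks.

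Knockdown under CSDS was compared with GFP under CSDS, a comparison that shares the GFP CSDS list with the first. In Zbt-KD CSDS, 21 of 80 receptor peaks (26.25%) were opened, against 22.0% of all peaks, and 55 of 176 in GFP CSDS (31.25%) were closed, against 38.3%. By gene, 58 (2.94%) were gained and 35 (1.77%) lost, against 0.720% and 0.753%. Among genes in each list's peaks, 14.4% of receptor genes were gained and 9.21% lost, against 9.23 and 9.61% of all genes. The gained genes included all 13 of the Olfr908 to Olfr921 block, and the lost ones included 8 Vmn2r genes and 1 Vmn1r gene. The strongest opened peak was at Olfr16, chr1:172884927-173177895, with fold enrichment 1.97, and the strongest closed one was again the distal Olfr161 peak with 2.47. At 1 scale 9 of 41 (21.95%) were opened and 6 of 38 (15.8%) closed, against 13.6% and 16.2% of all peaks. Among the upper 50% of peaks by fold enrichment 3 of 34 (8.82%) were opened and 44 of 110 (40%) closed, against 8.44% and 40.99%.

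CSDS was also compared with control under knockdown, which shares both lists with the comparisons above. Of 80 receptor peaks in Zbt-KD CSDS, 17 (21.25%) were opened, against 27.6% of all peaks, and of 84 in Zbt-KD control 20 (23.8%) were closed, against 24.3%. Genes gained were 40 (2.02%) and genes lost 61 (3.09%), 50 of them Olfr, against 0.777% and 0.789%. Among genes in each list's peaks these were 9.93 and 14.4%, against 9.95 and 10.09% of all genes. Of those lost, 14 lay in Olfr987 to Olfr1274-ps, 9 in Olfr334-ps1 to Olfr368 and 8 in Olfr1417 to Olfr1505. The strongest opened peak was at Vmn2r6 (1.77) and the strongest closed one at Olfr358 (1.91). At 1 scale 7 of 41 (17.1%) were opened and 6 of 38 (15.8%) closed, against 17.3% and 16.3% of all peaks.

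ZBTB7A overexpression was compared with GFP after SSDS, the one comparison whose lists enter no other. Of 46 receptor peaks in ZBT-OE SSDS, 7 (15.2%) were opened, against 31.4% of all peaks, and of 53 in GFP SSDS 10 (18.9%) were closed, against 27.7%. By gene, 21 (1.06%) were gained and 41 (2.07%) lost, against 3.09% and 0.873%. Among genes in each list's peaks, 5.13% of receptor genes were gained, against 25.3% of all genes, and 9.56% lost, near the 8.73% of all genes. Of the gained genes 9 lay in Olfr24 to Olfr18 on chromosome 9, and of the lost genes 10 lay in Olfr9 to Olfr827, 8 in Olfr693 to Olfr519 and 5 in Vmn1r41 to Vmn1r47. The strongest closed peak was at Vmn1r47, chr6:89989410-90035704, with fold enrichment 2.90 (percentile 82.0), and the strongest opened one at Olfr868 with 1.84 (percentile 32.4). Among the upper 50% of peaks 1 of 26 (3.85%) was opened and 5 of 31 (16.1%) closed, against 21.7% and 23.3% of all peaks. At 1 scale 8 of 46 (17.4%) were opened and 5 of 42 (11.9%) closed, against 35.4% and 12.6%.

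The genes that differed between lists lay together in blocks. The 14 blocks compared were chosen after their values were seen, so their values are a description. Olfr908 to Olfr921 (chr9:38516034-38779021, 13 genes) was covered at 99.6, 3.19, 94.4, 100, 100 and 100%, with 13, 0, 12, 13, 13 and 13 genes overlapped. GFP CSDS still had 4 short peaks there, the strongest at percentile 80.9 of its list, and the strongest peak of the other lists in the block was at percentile 70.6 to 94.8. Olfr1497 to Olfr1504 on chromosome 19 had all 8 genes in 5 lists and 0 in Zbt-KD CSDS, where no peak touched it. The fold enrichment elsewhere was 1.76 to 2.23.

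**Figure D4:**
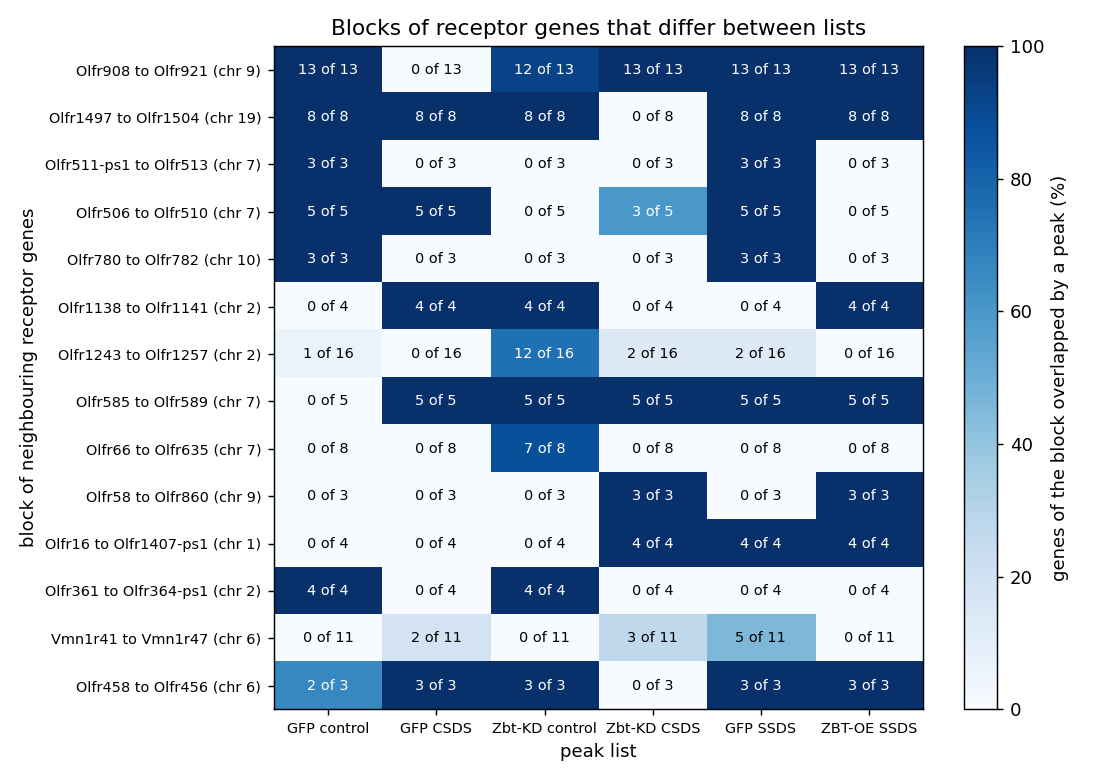
Share of genes overlapped by a peak (%) in 14 blocks of neighbouring receptor genes (rows) in the 6 lists (columns), chosen after their values were seen. A gene counts from 1 bp of overlap, so a full share does not mean that the whole block was covered. Olfr908 to Olfr921 had 0 of 13 genes in GFP CSDS and 12 or 13 elsewhere.

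In 2 blocks Zbt-KD control had the most genes in peaks. Olfr1243 to Olfr1257 on chromosome 2 had 12 of 16 genes in peaks in Zbt-KD control, and 1, 0, 2, 2 and 0 in the others. The strongest peak lying whole inside the block had a fold enrichment of 1.91 in Zbt-KD control (percentile 60.4). Zbt-KD CSDS and GFP SSDS had peaks over 19.5 and 16.8% of the block. Olfr66 to Olfr635, next to the beta-globin genes on chromosome 7, had 7 of 8 genes in peaks in Zbt-KD control, at a fold enrichment of 1.80, and 0 in every other list.

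Other blocks crossed the groups. Olfr16 to Olfr1407-ps1 on chromosome 1 had all 4 genes in Zbt-KD CSDS, GFP SSDS and ZBT-OE SSDS and 0 in the other lists. Olfr585 to Olfr589 on chromosome 7 had all 5 genes in every list but GFP control, where 2 peaks still covered 19.9% of the block, the strongest at percentile 94.99 of its list. Olfr361 to Olfr364-ps1 on chromosome 2 had 4 of 4 in both unstressed lists, GFP control (74.4% of the block covered) and Zbt-KD control (41.1%), and 0 elsewhere. Olfr511-ps1 to Olfr513 on chromosome 7 and Olfr780 to Olfr782 on chromosome 10 each had 3 of 3 genes in GFP control and GFP SSDS and 0 elsewhere. In GFP control these were 11 and 6 short peaks over 43.8 and 48.02% of the blocks, against 100% in GFP SSDS, and in GFP CSDS 2 peaks still covered 10.4% of Olfr780 to Olfr782. Olfr58 to Olfr860 on chromosome 9 had 3 of 3 in Zbt-KD CSDS and ZBT-OE SSDS and 0 elsewhere, and Olfr458 to Olfr456 on chromosome 6 had 2, 3, 3, 0, 3 and 3 of 3. Olfr506 to Olfr510 on chromosome 7 was at 5, 5, 0, 3, 5 and 0 of 5 genes, and Vmn1r41 to Vmn1r47 on chromosome 6 at 0, 2, 0, 3, 5 and 0 of 11. Of these blocks, Olfr361 to Olfr364-ps1 was the one whose lists split by stress, with both unstressed lists on 1 side.

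In Olfr1138 to Olfr1141 on chromosome 2 the lists differed in where a wide peak began. Its 4 genes were in peaks in GFP CSDS, Zbt-KD control and ZBT-OE SSDS, where the wide top Olfr peak began at 87706631, 87704935 and 87706667. In GFP control, Zbt-KD CSDS and GFP SSDS the same peak began at 87768797, 87761870 and 87761916, past the block. GFP control also had separate smaller peaks from 87706669 on. The 1 inside the block covered 7.78% of it and overlapped 0 of its 4 genes. The wide peak itself was present in all 6 lists.

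Receptor peaks differed from the other peaks in base composition. Bases written in lower case in the reference, which are interspersed repeats and low-complexity sequence, made up a median of 54.1, 55.6, 54.3, 53.8, 54.3 and 54.6% of receptor peaks, against 38.4, 40.01, 42.7, 43.4, 41.7 and 38.9% of the other peaks. Median GC content was 40.7, 40.5, 39.3, 39.3, 38.9 and 39.2%, against 41.8, 41.4, 39.7, 39.6, 40.1 and 40.9%. Receptor peaks were thus higher in lower-case bases and lower in GC in all 6 lists.

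Repeated sequence within the arrays was measured by runs of 31 bases that occur more than once in the genome. In cluster bases covered in all 6 lists, the share of such runs was 84.8% for Vmn1r and 81.4% for Vmn2r, against 34.8 and 36.1% in cluster bases covered in no list. For Olfr the shares were 31.3 and 25.6%. In whole receptor peaks the shares were 38.2, 48.6, 48.5, 41.2, 49.1 and 42.2%, against 42.5, 39.0, 39.3, 38.7, 36.0 and 36.2% of the other peaks, lower in GFP control and higher in the other 5 lists. The 3 highest were GFP CSDS, Zbt-KD control and GFP SSDS, whose receptor peaks include the wide Vmn2r peak on chromosome 7. The same was measured per gene. Vmn1r genes in all 6 lists had a median of 97% repeated runs and those in 0 lists 18%, Vmn2r genes 84 and 27%, and Olfr genes 11 and 9%. At least 50% of runs were repeated in 64 of 80 Vmn1r genes in all 6 lists (80%) and 41 of 221 in none (18.6%), in 44 of 61 Vmn2r genes (72.1%) and 25 of 144 (17.4%), and in 4 of 168 Olfr genes (2.38%) and 44 of 1081 (4.07%). The Taar genes, all in 0 lists, had a median of 53.5%. The Vmn1r values rest largely on 1 array, Vmn1r91 to Vmn1r183, with 59 to 61 genes overlapped in each list and 87.1% repeated runs. The other Vmn1r clusters covered at 50% or more in every list had 60.95% (Vmn1r55 to Vmn1r65) and 39.85% (Vmn1r32 to Vmn1r39). The Vmn1r clusters at 0 had 31.7 and 41.8%.

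Across the 52 clusters, the mean covered share and the share of repeated runs had Pearson's r of 0.69 and a Spearman rank correlation of 0.61. These clusters share the 6 lists and their depth, some of them overlap, and the coefficients are a description. The rank correlation was 0.49 within Olfr (n = 30), 0.66 within Vmn1r (n = 8) and 0.76 within Vmn2r (n = 13). The rank correlation of covered share with GC content was -0.43 over all clusters, -0.75 within Olfr, -0.024 within Vmn1r and 0.40 within Vmn2r, so its sign was not the same in the families. With lower-case bases it was 0.59 over all clusters, 0.65 within Olfr, 0.90 within Vmn1r and -0.0055 within Vmn2r. The 11 clusters with a mean coverage of at least 50% had 27.1 to 90.4% repeated runs (median 49.15%), and the 14 clusters at 0 had 10.95 to 41.8% (median 22.75%), so the ranges overlapped. Reads that map to more than 1 place had been dropped by the authors, and the part of repeated sequence in the coverage was not tested. Peaks within 10 kb of a run of unknown bases were 1, 2, 2, 0, 2 and 1 of the receptor peaks (0.292, 1.14, 2.38, 0, 3.77 and 2.17%), against 0.749, 0.897, 1.97, 2.36, 2.20 and 2.34% of the other peaks.

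**Figure D5:**
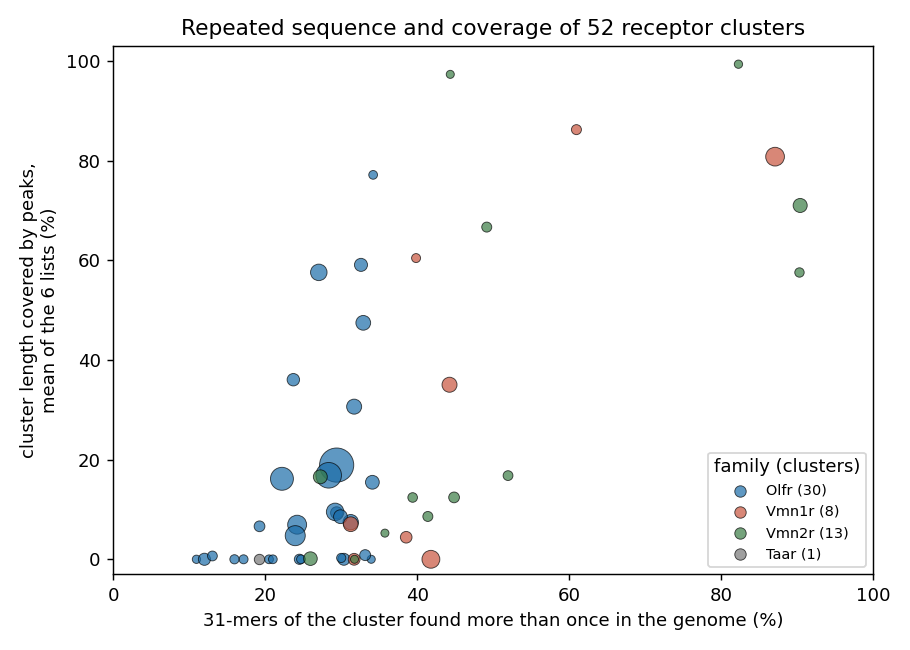
Each point is 1 of the 52 receptor clusters, coloured by family and sized by its number of genes, with the share of runs of 31 bases found more than once in the genome (%) on the x axis and the covered share, mean of the 6 lists (%), on the y axis. The clusters at 0 have 10.95 to 41.8% repeated runs, and the 11 with a mean of at least 50% have 27.1 to 90.4%.

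Promoters of receptor genes were in peaks more often than promoters in general. Of 1276 receptor promoters in the RefSeq table on chromosomes 1 to 19, 213 (16.7%) were overlapped in all 6 lists and 941 (73.7%) in none, against 3.86% and 89.4% of 31396 promoters of all genes. In all 6 lists were 109 of 942 Olfr promoters (11.6%), 79 of 206 Vmn1r promoters (38.3%), 25 of 117 Vmn2r promoters (21.4%) and 0 of 11 Taar promoters. The letters TAATTA, a core bound by homeodomain proteins such as Lhx2 and equal to its own reverse complement, were in 176 Olfr promoters (18.7%), 15 Vmn1r promoters (7.28%) and 20 Vmn2r promoters (17.1%), against 1653 promoters of all genes (5.265%). They were in 23 of the 213 receptor promoters in all 6 lists (10.8%) and 169 of the 941 in none (17.96%), and the first set holds a larger part of Vmn1r promoters. The motif of Ebf factors, TCCC and GGGA with any 2 bases between them, which is also its own reverse complement and does not overlap the first, was in 5 receptor promoters (0.392%) and in 0.920% of all promoters. Neither was found in the 3 promoters printed above. Both motifs were searched in these exact forms only, in windows at annotated starts, which are an ATG in Olfr341 and Vmn1r61. Other forms of a site and sites further upstream were not counted. The shares describe these windows and do not show how common the sites are at transcript starts.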

How the data were processed

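ATAC-seq was measured in 32 samples of 6 groups, grouped by the labels. Per the methods, reads were aligned by the authors with HISAT2 (mm10), reads with more than 1 place were dropped, as were duplicates (SAMtools), and MACS peaks, called with no fragment model, were filtered by FDR. They deposited 1 annotated list per group, and how samples were combined is not given in the sources used here. Fold enrichment in the deposited lists is the authors' ratio over background and comparable only within a list. The deposited q-value is the peak caller's, on the linear scale. Listed gene, distance and annotation are as the authors deposited them. Depth is unknown. The stated settings name no step that joins peaks, and how the wide peaks arose was not tested.

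Members and lists of genes, and the comparisons, were chosen with earlier results of these data known. Starts were read as counted from 1, since 446 of 781 listed distances were then exact, against 219 counted from 0. Genes and clusters came from the GENCODE annotation of GRCm38.p6, which has the mm10 coordinates. Peaks of 2 lists were shared, and a gene was in a peak, from 1 bp of overlap. Opened and closed mean absent from the other list. Named genes were, by rule, the strongest peak of each family and list, the 4 genes of each family in most lists (ties by mean percentile), the strongest receptor peak absent from the other list, the most and least covered clusters, and overlapped signalling genes. Blocks were chosen after seeing the data. Repeated runs were counted over the genome on runs sampled from each gene, cluster and peak set. Intervals are 95% Wilson intervals. The overlap code was tested on simulated data, and 3000 of 3000 values were right. Computations used matplotlib 3.10.9, numba 0.67.0, scipy 1.17.1, pandas 2.3.3 and numpy 2.4.6 under Python 3.11.15.

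The alternatives were q-values below 0.00001, the upper 50% of each list by fold enrichment, start sites within 10 kb, peaks overlapping a receptor gene, lists joined at 1 scale, a 50% overlap, coding genes, and 10 width bins. The table of differential regions made by the authors was not used here.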

Additional observations from a re-analysis of the deposited data

Results flagged for a closer look

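In the Vmn2r-ps92 to Vmn2r83 cluster on chromosome 10, the CSDS and control lists differed in opposite directions under the 2 viruses. The cluster has 5 genes among 15 other coding genes. It was covered at 1.45% in GFP control and 10.1% in GFP CSDS, and at 13.8% in Zbt-KD control and 0% in Zbt-KD CSDS. In the same order, 0, 1, 2 and 0 of its receptor genes were overlapped. The covered share was 8.65 percentage points higher in GFP CSDS than in GFP control, whereas from Zbt-KD control to Zbt-KD CSDS it fell by 13.8 points. Each value rests on 1 list per group, and the difference between them was not tested.

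Outside chromosomes 1 to 19 the lists hold 1 further receptor peak each, a peak of over 1 Mb on the X chromosome listed at Olfr1323. Its fold enrichment was listed as 4.26 in GFP control and as a larger number in 4 lists, 4.58 in GFP CSDS, 4.38 in Zbt-KD control, 4.39 in Zbt-KD CSDS and 4.48 in GFP SSDS, and as 3.93 in ZBT-OE SSDS. Fold enrichment is scaled within each list, so these differences are not read as differences in opening, and no test was possible.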

How the results depend on the processing

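Of 112 alternative values, 89 stayed within the interval of the reported one and 23 did not. The share of receptor peaks was lower when the start site had to lie within 10 kb (3.12% GFP control, 3.17% GFP CSDS, 4.99% Zbt-KD control, 4.98% Zbt-KD CSDS) or the peak had to overlap a receptor gene (2.92% GFP control, 3.11% GFP CSDS), which also moved the median percentile to 72.7, 72.6, 58.4 and 56.5 in the first 4 lists. With the upper 50% of peaks, the share of receptor peaks was 6.35% in GFP CSDS, receptor genes in peaks were 19.1% in Zbt-KD control, 19.7% in GFP SSDS and 18.1% in ZBT-OE SSDS, and absent receptor peaks were 38.3% for those closed in Zbt-KD control against GFP control (all peaks 35.9%), 8.82% opened (8.44%) and 40% closed (40.99%) in Zbt-KD CSDS against GFP CSDS, and 3.85% opened in ZBT-OE SSDS (21.7%). At 1 scale, absent receptor peaks were 10.5% opened (all peaks 25.6%) and 8.33% closed (11.3%) for CSDS in GFP mice, 5.56% closed for Zbt-KD control (9.40%), and 15.8% closed for Zbt-KD CSDS against GFP CSDS (16.2%) and against Zbt-KD control (16.3%). The cause of these moves was not tested. By overlap with a receptor gene the order of the lists by share of receptor peaks also changed, and GFP control and GFP CSDS were lowest. Stricter q-values, width bins, a 50% overlap and coding genes alone left the values they were applied to within the interval.

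No paired analysis was possible because each group has 1 list that pools its samples and holds no value per sample. Leaving out a sample was not possible for the same reason. Depth is unknown, so the limit of detection at a missing site is not known. Numbers of peaks depend on how finely a list is split, genes of an array share peaks, and intervals cover counting error only.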
